A study of Homo sapiens with 9 samples.

Results

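Aminoacyl-tRNA synthetases are the enzymes that join each amino acid to its transfer RNA before the ribosome can use it. The 35 genes described here are 19 that supply the cytosol and 16 that serve mitochondrial translation and carry the suffix 2 in their names. They were taken by gene symbol from a table of 36810 genes. All 35 were found through their Ensembl identifiers. Both sets are encoded in the nucleus, and the mitochondrial enzymes are imported to charge the transfer RNAs that the mitochondrial genome encodes. Several cytosolic enzymes sit together in the multi-synthetase complex, held by scaffold proteins, and many synthetase genes are known targets of ATF4, the transcription factor that answers amino acid shortage. GARS1 and KARS1 make both the cytosolic and the mitochondrial enzyme from 1 gene, and mitochondria make glutaminyl-tRNA by amidation, which is why glycine, lysine and glutamine have no second gene.

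Polyadenylated RNA was sequenced from 143B cells, an established human osteosarcoma line grown in RPMI-1640 medium with fetal bovine serum. Control cells were taken at 0 h, and the other cells received 0.5 µM XD23, a compound known here by its code name, for 24 h or for 48 h. Each of the 3 groups held 3 libraries. The labels name neither a vehicle nor untreated cells at 24 h or 48 h, so the compound and the time in culture cannot be told apart, and they do not say that libraries came from separate cultures.

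The libraries held 18341542 to 22901830 fragments. Values are FPKM, fragments scaled to the length of the gene and the depth of the library. A single fragment on 1 kilobase was worth 0.0437 to 0.0545 FPKM. Leaving out VARS2, each member had 60 to 22255 fragments in a library. On the second principal component of all genes, library 3 of the 24 h group stood apart at -24.7, against -6.96 to 9.06 in the other libraries, so calls that change without it are given below. Of the mesenchymal markers, VIM reached 296.9 to 389.4 FPKM and RUNX2 4.06 to 6.61 FPKM, while COL1A1 stayed under 0.703 FPKM and COL1A2 under 0.0549 FPKM. Epithelial markers were also present: the sum of 3 of 4 listed genes (EPCAM, KRT8 and KRT18) lay at 139.3 to 153.4 FPKM at 48 h and 184.1 to 192.7 FPKM in control cells. Their part in the results below was not tested. The blood marker PTPRC was at or near 0.

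After 48 h with XD23, 11 of the cytosolic synthetase transcripts fell, by up to 30.5% of the control mean (EPRS1), and 2 of the mitochondrial ones fell. A gene was called when its adjusted p was under 0.05 in a limma fit of log2(FPKM + 1) to all 9 libraries, adjusted over 13657 genes. At 48 h against control, 13 of 34 tested synthetases fell, none rose and 21 were not called. A gene that was not called cannot be taken as unchanged, because some intervals given below include changes of a size that was called in other genes. Of all genes tested, 15.2% were called lower and 13.3% higher. In all, 18 of the 34 had their 3 libraries at 48 h below every control library (27.7% of all genes did) and 2 had them above (22.7%). Among the cytosolic genes 11 of 19 fell (57.9%), and among the mitochondrial genes 2 of 15 fell (13.3%), a share near that of all genes and thus no result about the mitochondrial set. The median level was 34.9 FPKM for the cytosolic and 7.09 FPKM for the mitochondrial genes, and whether level bears on these shares was not tested. With a filter of at least 5 FPKM in at least 3 libraries, 1614 of 7384 genes were called lower. Of 28 synthetases tested then, 12 cytosolic and 1 mitochondrial gene fell. The median log2 fold change was -0.14 for the cytosolic genes and -0.039 for the mitochondrial genes, beside -0.025 for all genes tested. Whether each cell held less of a transcript or fewer cells held it cannot be told apart in bulk RNA.

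**Figure D1:**
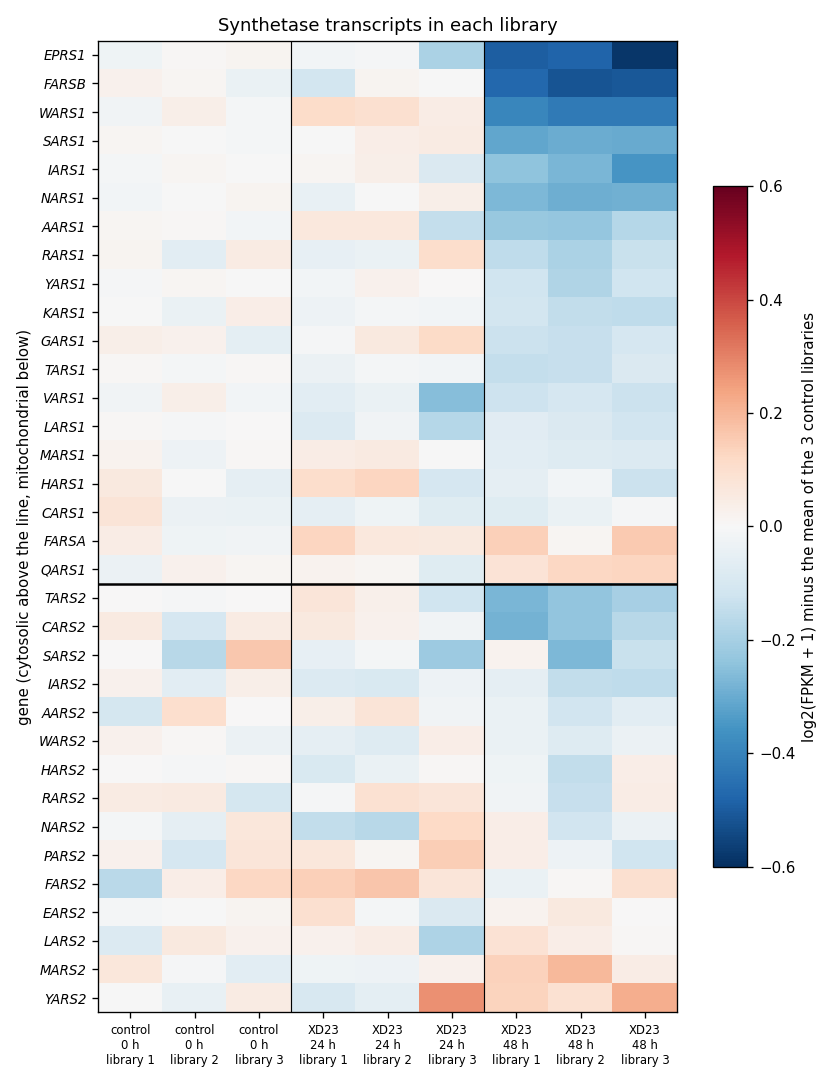
Each row is a synthetase gene and each column a library (3 control at 0 h, 3 at 24 h and 3 at 48 h with XD23), and the colour gives log2(FPKM + 1) minus the mean of the 3 control libraries. Blue cells gather in the 48 h columns of the cytosolic block above the line, with EPRS1, FARSB and WARS1 darkest, and the mitochondrial block below it mixes blue and red, with TARS2 and CARS2 blue in all 3 columns at 48 h.

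The summed cytosolic level also fell at 48 h. It weighs abundant genes most, such as SARS1 (mean 254.8 FPKM at 0 h and 206.2 FPKM at 48 h). It also depends on the gene lengths behind the FPKM, so it does not give the change of a typical gene. The 19 cytosolic genes added up to 1151.2 ± 2.23 FPKM at 0 h, 1153.5 ± 12.3 FPKM at 24 h and 983.3 ± 4.10 FPKM at 48 h (SD, n = 3 each). The 48 h libraries lay between 978.6 and 986.1 FPKM, below every other library, the lowest of which had 1145.4 FPKM. The 16 mitochondrial genes added up to 199.6 ± 2.20 FPKM at 0 h, 196.3 ± 4.72 FPKM at 24 h and 190.7 ± 3.76 FPKM at 48 h.

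EPRS1 (chr1:219968601-220046658, minus strand, build GRCh38) encodes the fused enzyme that charges glutamate and proline and belongs to the multi-synthetase complex. It had 94.2, 96.2 and 97.0 FPKM at 0 h, 94.5, 95.4 and 83.8 FPKM at 24 h, and 67.8, 68.4 and 63.5 FPKM at 48 h. All 3 libraries at 48 h were below the other 6, and library 3 was the lowest of the 24 h group. The log2 fold change of 48 h against control was -0.52 ± 0.054 (SE, 95% interval -0.64 to -0.40, limma adjusted p = 0.000309). FARSB (chr2:222570536-222656337, minus strand) encodes the beta subunit of the cytosolic phenylalanine enzyme, and it had 28.3, 28.0 and 26.9 FPKM at 0 h, 25.6, 28.0 and 27.6 FPKM at 24 h, and 19.7, 19.0 and 19.2 FPKM at 48 h. Its 48 h values did not overlap those of control or 24 h cells, and the log2 fold change at 48 h was -0.50 ± 0.042 (SE, 95% interval -0.60 to -0.40, limma adjusted p = 0.000119).

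WARS1 (chr14:100333788-100376805, minus strand) encodes the cytosolic tryptophan enzyme, which interferon gamma is known to induce in human cells. It had 92.5, 96.2 and 93.2 FPKM at 0 h, 102, 101 and 96.8 FPKM at 24 h, and 71.3, 69.7 and 69.8 FPKM at 48 h. The 24 h values lay just above control and the 48 h values below both. The log2 fold change at 48 h was -0.41 ± 0.033 (SE, 95% interval -0.49 to -0.34, limma adjusted p = 0.0001002). Of the exon bases of WARS1, 10.6% overlap WDR25 or a locus named AL157871.4, and reads there cannot be assigned to a single gene. SARS1 (chr1:109213918-109238169, plus strand), which charges serine and also starts the making of selenocysteinyl-tRNA, was the most abundant member per length with 257, 255 and 252 FPKM at 0 h, 254, 262 and 264 FPKM at 24 h, and 205, 207 and 207 FPKM at 48 h. Its 3 libraries at 48 h were below all others, by a log2 fold change of -0.30 ± 0.030 (SE, 95% interval -0.37 to -0.24, limma adjusted p = 0.000253) against control.

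IARS1, the isoleucine enzyme of the complex, had 22.6, 23.0 and 22.7 FPKM at 0 h, 22.9, 23.4 and 21.3 FPKM at 24 h, and 19.1, 18.7 and 17.6 FPKM at 48 h. The groups at 48 h and 0 h did not overlap, with a log2 fold change of -0.29 ± 0.045 (SE, 95% interval -0.39 to -0.19, limma adjusted p = 0.00214). NARS1, which charges asparagine, had 105, 106 and 107 FPKM at 0 h, 103, 106 and 109 FPKM at 24 h, and 87.9, 86.4 and 86.8 FPKM at 48 h. Its 48 h libraries were again below every other library, with a log2 fold change of -0.28 ± 0.032 (SE, 95% interval -0.36 to -0.21, limma adjusted p = 0.000472).

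Smaller falls were called for 5 more cytosolic genes, none of which overlapped between 48 h and control. AARS1, the alanine enzyme, which also clears serine attached by mistake, had 35.4, 35.3 and 34.8 FPKM at 0 h, 36.8, 36.8 and 31.7 FPKM at 24 h, and 29.9, 29.8 and 31.1 FPKM at 48 h. In library 3 of the 24 h group it was nearer the 48 h values than the control values. Its log2 fold change at 48 h was -0.21 ± 0.056 (SE, 95% interval -0.34 to -0.082, limma adjusted p = 0.0239). RARS1, the arginine enzyme of the complex, had 62.6, 59.2 and 64.3 FPKM at 0 h, 59.9, 60.3 and 66.8 FPKM at 24 h, and 55.7, 54.2 and 56.5 FPKM at 48 h. The lowest control library, at 59.2 FPKM, was close to the highest 48 h library, at 56.5 FPKM. The log2 fold change was -0.16 ± 0.051 (SE, 95% interval -0.27 to -0.043, limma adjusted p = 0.0461).

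YARS1, which charges tyrosine, had 28.3, 28.8 and 28.4 FPKM at 0 h, 28.2, 29.1 and 28.6 FPKM at 24 h, and 26.1, 25.0 and 26.2 FPKM at 48 h. The 48 h libraries were the lowest 3 of the 9, with a log2 fold change of -0.14 ± 0.033 (SE, 95% interval -0.22 to -0.065, limma adjusted p = 0.014). KARS1, the lysine enzyme of both compartments, had 52.5, 51.1 and 53.9 FPKM at 0 h, 51.3, 52.1 and 51.9 FPKM at 24 h, and 48.6, 47.3 and 47.2 FPKM at 48 h. Its fall at 48 h was also small next to its level, with a log2 fold change of -0.14 ± 0.033 (SE, 95% interval -0.21 to -0.061, limma adjusted p = 0.0153). TARS1, which charges threonine, had 149.7, 148 and 149.9 FPKM at 0 h, 145, 148 and 148 FPKM at 24 h, and 135, 135 and 141 FPKM at 48 h. Its 48 h values were below the rest, with a log2 fold change of -0.12 ± 0.030 (SE, 95% interval -0.19 to -0.053, limma adjusted p = 0.0176).

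The other 8 cytosolic genes were not called at 48 h against control. GARS1, the glycine enzyme of both compartments, had 36.3, 36.1 and 33.9 FPKM at 0 h, 35.3, 37.0 and 38.4 FPKM at 24 h, and 32.4, 32.1 and 32.9 FPKM at 48 h. The 48 h libraries were below control, but the log2 fold change of -0.12 ± 0.042 (SE, 95% interval -0.22 to -0.027, limma adjusted p = 0.0589) missed the threshold. Without library 3 at 24 h it passed, at a limma adjusted p of 0.0257. MARS1, the methionine enzyme of the complex, had 41.6, 40.1 and 41.1 FPKM at 0 h, 42.2, 42.5 and 40.8 FPKM at 24 h, and 39.1, 38.7 and 38.5 FPKM at 48 h. Its change at 48 h was -0.075 ± 0.032 (SE, 95% interval -0.15 to -0.0015, limma adjusted p = 0.118), and 13.3% of its exon bases are shared with ARHGAP9, MIR6758 or DDIT3. DDIT3, a stress gene, was at 11.9 ± 1.32 FPKM at 48 h and 8.20 ± 0.101 FPKM in control cells (SD, n = 3). It was not called, with a log2 fold change of 0.48 ± 0.16 (SE, 95% interval 0.11 to 0.86, limma adjusted p = 0.0566). Its 24 h libraries had 6.27, 9.37 and 11.3 FPKM. Because the labels state no strand-specific kit, reads in the shared bases cannot be assigned to 1 gene.

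QARS1, which charges glutamine in the complex, had 44.9, 47.0 and 46.4 FPKM at 0 h, 46.8, 46.4 and 43.8 FPKM at 24 h, and 48.8, 50.4 and 50.5 FPKM at 48 h. Its 48 h libraries were all above control, with a log2 fold change of 0.11 ± 0.038 (SE, 95% interval 0.026 to 0.20, limma adjusted p = 0.0547), which just missed the threshold. It passed under 6 of 18 other settings, at a limma adjusted p of 0.0154 without library 3 at 24 h and 0.0135 with median-of-ratios scaling, and over all 18 the adjusted p was 0.0135 to 0.175. FARSA, the alpha subunit of the phenylalanine enzyme, had a log2 fold change of 0.10 ± 0.048 (SE, 95% interval -0.0046 to 0.21, limma adjusted p = 0.139). For VARS1 (valine) the change was -0.12 ± 0.056 (SE, 95% interval -0.25 to 0.0093, limma adjusted p = 0.152). For LARS1 (leucine, also known as a leucine sensor for mTORC1) it was -0.090 ± 0.043 (SE, 95% interval -0.19 to 0.0079, limma adjusted p = 0.155). HARS1 (histidine) and CARS1 (cysteine) had changes of -0.067 ± 0.068 and -0.038 ± 0.041, with overlapping groups. The intervals of VARS1 and LARS1 include changes of the size called for TARS1. Without library 3 at 24 h, VARS1, LARS1 and MARS1 were called lower, at limma adjusted p values of 0.0122, 0.0447 and 0.0487.

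**Figure D2:**
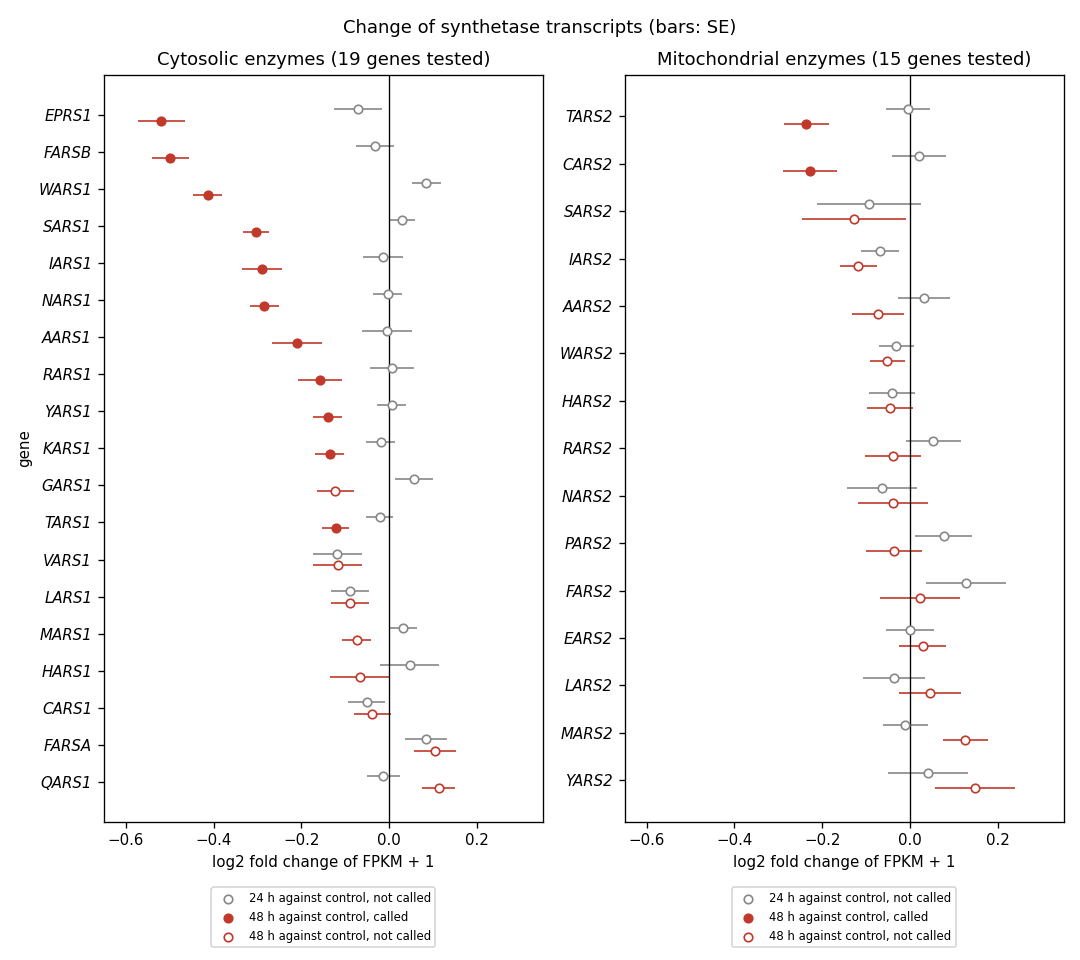
Points are log2 fold changes of FPKM + 1 against control with SE bars, grey for 24 h and red for 48 h, with filled points called and open points not called; the left panel holds 19 cytosolic genes and the right panel 15 mitochondrial genes. Red filled points run from EPRS1 at -0.52 to TARS1 at -0.12 on the left, and only TARS2 and CARS2 are filled on the right.

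The cytosolic calls were found both inside and outside the complex. Within the multi-synthetase complex 4 of 7 members fell (EPRS1, IARS1, KARS1 and RARS1), and outside it 7 of 12 fell. Their median log2 fold changes were -0.14 and -0.13. By catalytic fold, 4 of 9 class I and 6 of 9 class II cytosolic genes fell, with EPRS1 holding one domain of each class and counted in neither. Among all genes tested, 15.2% were called lower.

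Among the mitochondrial enzymes, TARS2 and CARS2 fell. TARS2, the mitochondrial threonine enzyme, had 18.8, 18.7 and 18.8 FPKM at 0 h, 19.8, 19.2 and 17.2 FPKM at 24 h, and 15.3, 15.8 and 16.2 FPKM at 48 h. The 48 h libraries were below all others, and the log2 fold change against control was -0.24 ± 0.051 (SE, 95% interval -0.35 to -0.12, limma adjusted p = 0.00963). CARS2, the mitochondrial cysteine enzyme, had 3.31, 2.86 and 3.29 FPKM at 0 h, 3.31, 3.22 and 3.09 FPKM at 24 h, and 2.41, 2.52 and 2.70 FPKM at 48 h. Its groups at 48 h and 0 h did not overlap, and the log2 fold change was -0.23 ± 0.061 (SE, 95% interval -0.37 to -0.089, limma adjusted p = 0.0234).

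The most abundant mitochondrial members per length were WARS2 and IARS2. WARS2, which charges mitochondrial tryptophan, had 66.4, 65.5 and 63.6 FPKM at 0 h, 62.7, 61.6 and 67.0 FPKM at 24 h, and 63.3, 61.7 and 63.5 FPKM at 48 h. The 48 h values lay just under control, with a log2 fold change of -0.052 ± 0.040 (SE, 95% interval -0.14 to 0.038, limma adjusted p = 0.371). IARS2, the isoleucine enzyme, had 46.6, 43.8 and 46.8 FPKM at 0 h, 43.2, 42.8 and 44.7 FPKM at 24 h, and 44.0, 41.2 and 41.0 FPKM at 48 h. Control and 48 h values overlapped, and the log2 fold change of -0.12 ± 0.042 (SE, 95% interval -0.21 to -0.021, limma adjusted p = 0.0692) was not called. Without library 3 at 24 h it was called lower, at a limma adjusted p of 0.0427.

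The remaining 11 tested mitochondrial genes were not called in any comparison of the main fit. Without library 3 at 24 h YARS2 was called higher at 48 h, at a limma adjusted p of 0.0315 against control and 0.0102 against 24 h. It was also called higher against control with only the 2 groups fitted, and against 24 h with array weights. MARS2 was called higher with array weights, at a limma adjusted p of 0.0442 against control and also against 24 h, and against 24 h without library 3 at 48 h. At 48 h against control the log2 fold change was -0.13 ± 0.12 for SARS2 (serine), -0.073 ± 0.058 for AARS2 (alanine), -0.045 ± 0.052 for HARS2 (histidine) and -0.039 ± 0.063 for RARS2 (arginine). It was -0.038 ± 0.080 for NARS2 (asparagine), -0.037 ± 0.065 for PARS2 (proline), 0.022 ± 0.091 for FARS2 (phenylalanine), 0.028 ± 0.054 for EARS2 (glutamate) and 0.045 ± 0.070 for LARS2 (leucine). The largest positive changes were 0.13 ± 0.051 for MARS2 (methionine) and 0.15 ± 0.092 for YARS2 (tyrosine), and the 3 libraries of YARS2 at 48 h, at 8.60 to 9.50 FPKM, were above control, at 7.74 to 8.33 FPKM. VARS2, the valine enzyme, was listed at 0.0810 to 0.143 FPKM, from 12 to 19 fragments, and was not tested. SARS2 had 60 to 88 fragments in a library, and 57.0% of its exon bases overlap MRPS12 or a locus named AC011455.2, so its value is uncertain.

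At 24 h no synthetase was called. The count was 0 of 34, where 0.00732% of all genes (1 gene) were called, and at an unadjusted p under 0.05 the members gave 1 gene and all genes 7.43%. By library, 3 members had all 24 h values below control (8.38% of all genes) and 2 had them above (4.81%). The gene under an unadjusted p of 0.05 was WARS1, with a log2 fold change at 24 h of 0.084 ± 0.033 (SE, 95% interval 0.0085 to 0.16, limma adjusted p = 0.644), and all 3 of its libraries were above control. The median change at 24 h was -0.0059 for the cytosolic and -0.0047 for the mitochondrial genes, beside -0.016 for all genes. In library 3 of the 24 h group VARS1 had 20.0 FPKM against 23.0 and 23.4 FPKM in the other 24 h libraries, and YARS2 had 9.92 FPKM against 7.44 and 7.66 FPKM. Without that library the count at 24 h was still 0.

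Between 48 h and 24 h, 15 synthetases were lower and 1 was higher, beside 16.3% lower and 16% higher (32.3% either way) among all genes. All 3 libraries at 48 h were below those at 24 h for 16 members and above them for 2, beside 23.1% of all genes each way. This comparison shares the 48 h libraries with the one against control. The cytosolic genes gave 13 lower and the mitochondrial genes 2. GARS1 had a log2 fold change of -0.18 ± 0.042 (SE, 95% interval -0.28 to -0.083, limma adjusted p = 0.0122), MARS1 had -0.11 ± 0.032 (SE, 95% interval -0.18 to -0.033, limma adjusted p = 0.0341), and QARS1 was the one that rose, by 0.13 ± 0.038 (SE, 95% interval 0.040 to 0.21, limma adjusted p = 0.0329). In each of the 3 the 48 h libraries did not overlap those at 24 h. Without library 3 at 24 h, RARS1 lost its call at a limma adjusted p of 0.0542 and HARS1 was called lower at 0.0257.

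Levels spanned a wide range between genes. The median level over 9 libraries was 34.9 FPKM for the cytosolic genes (range 5.33 to 240.3) and 7.09 FPKM for the mitochondrial genes (range 0.119 to 63.9). The mitochondrial gene was above its cytosolic partner for histidine, with HARS2 at 10.4 FPKM and HARS1 at 5.33 FPKM (15.8% and 8.38% of their exon bases overlap other genes, partly each other), and for isoleucine, with IARS2 at 43.8 FPKM and IARS1 at 21.3 FPKM. These levels depend on the gene length behind the FPKM, and the order for isoleucine may turn round with another length. That length equalled the exon length in GENCODE 29 for 4 members only, and for IARS1 it was 22418 bases where GENCODE gives 7401, for GARS1 17366 where GENCODE gives 4152, and for HARS1 14155 where GENCODE gives 7853. If every counted fragment were kept, the GENCODE lengths would put IARS1 at 64.4 FPKM and IARS2 at 43.5 FPKM. HARS1, at 9.62 FPKM, would stay under HARS2, at 10.4 FPKM. On the same assumption SARS1 would stay first at 241.1 FPKM, and the second place would pass from TARS1, at 107.5 FPKM, to GARS1, at 146.1 FPKM. Fragments outside the GENCODE exons would not be counted, so the values of IARS1, GARS1 and HARS1 may be too high. How many fragments lie there is not known. Division by a longer length, taken alone, lowers the FPKM of a gene in all libraries alike and leaves fold changes nearly as they are. A longer length may also take in other fragments, and whether these moved fold changes was not tested. Among others, FARSB (6761 bases where GENCODE gives 3369), AARS1 (10248 and 4498) and LARS1 (20639 and 8118) also had longer lengths. FARSB and AARS1 are among the genes called lower.

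**Figure D3:**
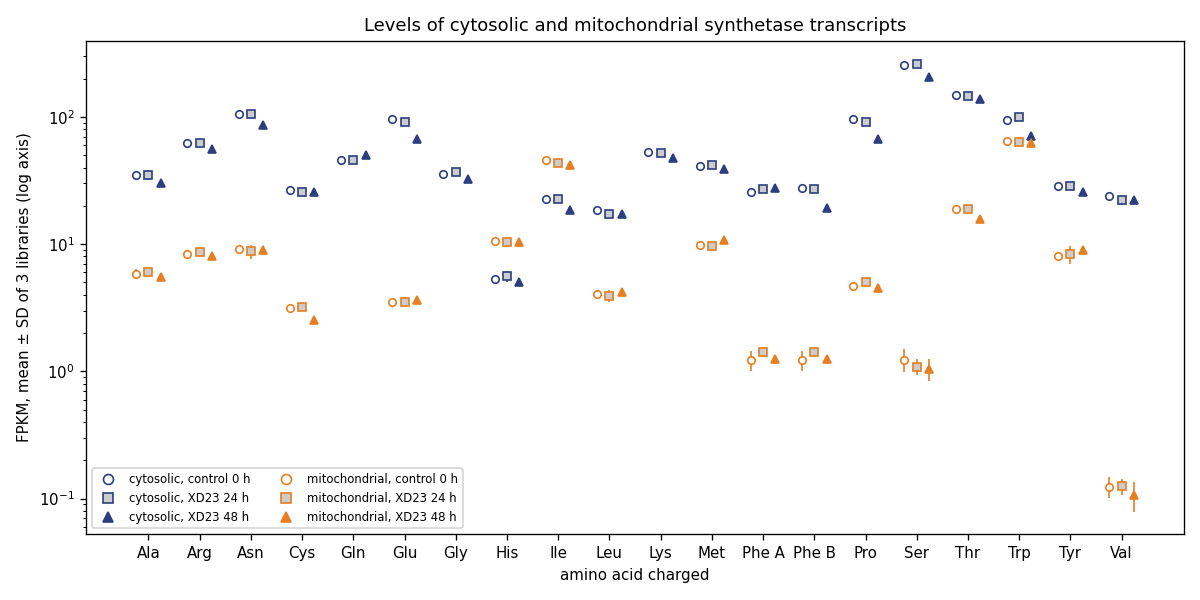
Mean FPKM (log axis) with SD of 3 libraries for each amino acid, cytosolic enzymes in blue and mitochondrial ones in orange, with circles for control at 0 h, squares for 24 h and triangles for 48 h; Phe A and Phe B are FARSA and FARSB, both set beside FARS2, and EPRS1 appears under Glu and Pro. In the FPKM as deposited blue lies above orange except for histidine and isoleucine, and SARS1 under Ser is highest. Isoleucine would turn round with the GENCODE lengths if every counted fragment were kept.

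A ratio of both genes in 1 library is not touched by scaling of that library. Of 17 ratios computed, the 6 shown in the plot of ratios by time were picked after their values were seen. FARSB over FARSA, whose products form 1 enzyme together, was 1.06, 1.10 and 1.06 at 0 h, 0.907, 1.04 and 1.03 at 24 h, and 0.691, 0.733 and 0.665 at 48 h. The 48 h ratios were below all others. The two-sided exact permutation p of 48 h against control was 0.1, the smallest that 3 against 3 libraries allow, or 0.142 after Benjamini-Hochberg adjustment over the 17 ratios. Of the 16 ratios of a cytosolic to a mitochondrial gene, 13 had the lower log2 change on the cytosolic side. At 48 h, 9 were lower in all 3 libraries than in any control library, and 2 were higher in all 3. EPRS1 was set over both EARS2 and PARS2, and FARS2 under both FARSA and FARSB, so the 16 ratios are not separate pairs. No share over other gene pairs was computed to set beside these counts. The median difference of the log2 changes, cytosolic minus mitochondrial, was -0.17.

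EPRS1 over EARS2 had a mean ratio of 27.1 ± 0.144 at 0 h, 25.8 ± 1.32 at 24 h and 18.4 ± 0.425 at 48 h (SD, n = 3 each). WARS1 over WARS2 had 1.44 ± 0.0428 at 0 h, 1.57 ± 0.104 at 24 h and 1.12 ± 0.0162 at 48 h. The ratios that were higher in all 3 libraries at 48 h were those of cysteine and threonine, in which the mitochondrial gene fell. CARS1 over CARS2 was 8.47 ± 0.614 at 0 h, 7.71, 8.10 and 8.18 in the libraries at 24 h and 10.2 ± 0.343 at 48 h, and TARS1 over TARS2 was 7.95 ± 0.0273, 7.88 ± 0.634 and 8.69 ± 0.129 at the same times.

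**Figure D4:**
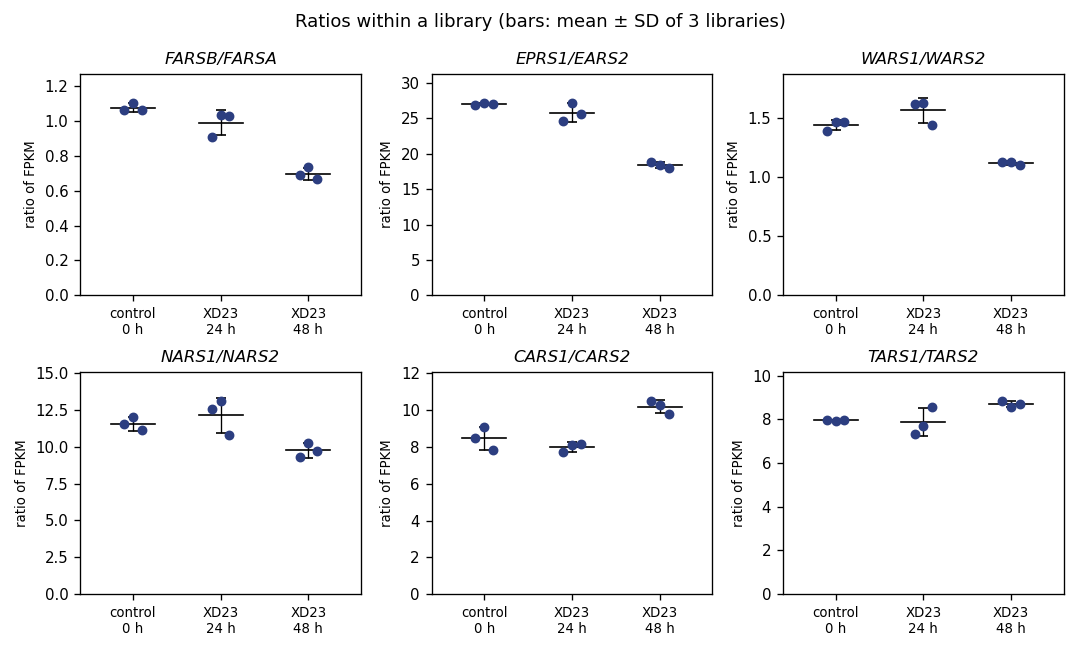
Points are ratios of FPKM within a library by time with XD23, and bars give the mean and SD of 3 libraries; each axis starts at 0. In FARSB/FARSA, EPRS1/EARS2, WARS1/WARS2 and NARS1/NARS2 the 48 h points lie under the control points, and in CARS1/CARS2 and TARS1/TARS2 they lie above them.

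Proteins that work beside the synthetases were read from the same fit. Of the 3 scaffold genes of the multi-synthetase complex, 2 fell, beside 15.2% of all genes. AIMP2 had 25.6, 22.0 and 25.3 FPKM at 48 h, against 32.4, 34.2 and 33.2 FPKM in control cells, a log2 fold change of -0.44 ± 0.058 (SE, 95% interval -0.57 to -0.31, limma adjusted p = 0.000899). AIMP1 fell less, with a log2 fold change of -0.15 ± 0.047 (SE, 95% interval -0.26 to -0.045, limma adjusted p = 0.0401). EEF1E1 had 0.047 ± 0.088 (SE, 95% interval -0.15 to 0.25, limma adjusted p = 0.732), and its groups overlapped.

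Elongation factors deliver charged transfer RNA to the ribosome and move it on. All 3 tested genes of the mitochondrial list fell, beside 15.2% of all genes. GFM2, kept in that list, is known to act in ribosome recycling rather than in elongation. The log2 fold change was -0.32 ± 0.050 (SE, 95% interval -0.43 to -0.20, limma adjusted p = 0.00216) for TUFM, -0.22 ± 0.051 (SE, 95% interval -0.34 to -0.10, limma adjusted p = 0.0139) for GFM1 and -0.18 ± 0.044 (SE, 95% interval -0.28 to -0.080, limma adjusted p = 0.0161) for GFM2. Of 5 cytosolic factors tested none was called, and 1 had an unadjusted p under 0.05, which 40.1% of all genes had. The 4 genes of mitochondrial glutamine amidation and methionine formylation gave no call either, and none had an unadjusted p under 0.05, beside the same 40.1%. Among the genes of editing and selenocysteine, 1 of 4 fell, beside 15.2% of all genes. It was DTD2, which removes misattached amino acids, with a log2 fold change of -0.34 ± 0.062 (SE, 95% interval -0.48 to -0.19, limma adjusted p = 0.00468).

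Genes that trim and export transfer RNA gave 5 lower and 1 higher of 10, beside 15.2% lower and 13.3% higher among all genes. TRMT10C, a subunit of mitochondrial RNase P, fell, with a log2 fold change of -0.39 ± 0.073 (SE, 95% interval -0.56 to -0.23, limma adjusted p = 0.00474), and HSD17B10, another subunit, fell, with a log2 fold change of -0.32 ± 0.088 (SE, 95% interval -0.52 to -0.12, limma adjusted p = 0.0266). The nuclear exporter XPOT fell, with a log2 fold change of -0.23 ± 0.037 (SE, 95% interval -0.32 to -0.15, limma adjusted p = 0.00218). RPP38, a protein of nuclear RNase P, rose by 0.41 ± 0.11 (SE, 95% interval 0.15 to 0.67, limma adjusted p = 0.0272). Of 12 genes that modify mitochondrial transfer RNA, 5 fell and none rose, with CDK5RAP1 at -0.33 ± 0.037 (SE, 95% interval -0.41 to -0.24, limma adjusted p = 0.000442), OSGEPL1 at -0.29 ± 0.049 (SE, 95% interval -0.40 to -0.18, limma adjusted p = 0.00317), TRIT1 at -0.23 ± 0.056 (SE, 95% interval -0.36 to -0.10, limma adjusted p = 0.0168) and PUS1 at -0.22 ± 0.069 (SE, 95% interval -0.38 to -0.068, limma adjusted p = 0.0399).

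The sensor of uncharged transfer RNA, EIF2AK4 (also called GCN2), was not called, with a log2 fold change of 0.079 ± 0.076 (SE, 95% interval -0.095 to 0.25, limma adjusted p = 0.484). In its list of 8 genes, beside 13.3% called higher among all genes, 2 rose. They were the phosphatase subunits that reverse eIF2 phosphorylation, PPP1R15A with 0.41 ± 0.054 (SE, 95% interval 0.29 to 0.53, limma adjusted p = 0.000889) and PPP1R15B with 0.27 ± 0.048 (SE, 95% interval 0.16 to 0.38, limma adjusted p = 0.00406). ATF4 itself had 252.6, 242.0 and 259.3 FPKM at 48 h, against 294.6, 293.7 and 299.0 FPKM in control cells, a log2 fold change of -0.23 ± 0.034 (SE, 95% interval -0.31 to -0.16, limma adjusted p = 0.00151). The list of ATF4 and its known targets was mixed, with 14 lower and 7 higher of 25 tested, beside the 15.2% and 13.3% of all genes. PYCR1, of proline synthesis, and PSAT1, of serine synthesis, fell, with log2 fold changes of -0.65 ± 0.045 (SE, 95% interval -0.76 to -0.55, limma adjusted p = 5.37e-05) and -0.49 ± 0.052 (SE, 95% interval -0.61 to -0.38, limma adjusted p = 0.000323). DDIT4, an inhibitor of mTORC1, and CHAC1, which degrades glutathione, rose by 0.86 ± 0.081 (SE, 95% interval 0.67 to 1.04, limma adjusted p = 0.000212) and 0.51 ± 0.065 (SE, 95% interval 0.36 to 0.65, limma adjusted p = 0.000803). ASNS, asparagine synthetase, was not called, with 0.058 ± 0.14 (SE, 95% interval -0.25 to 0.37, limma adjusted p = 0.789).

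**Figure D5:**
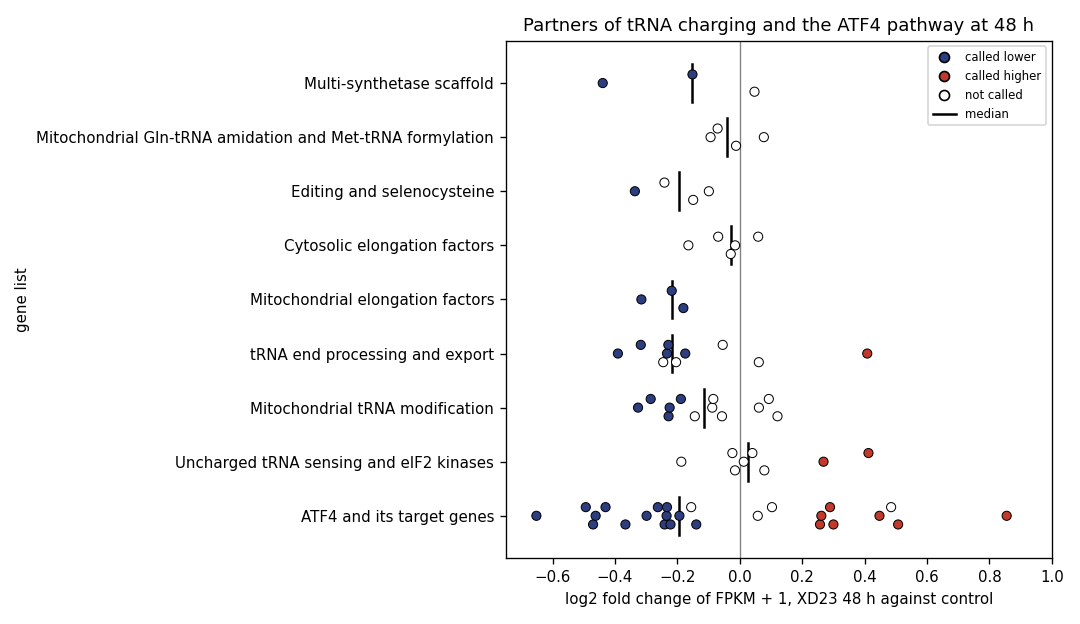
Points are log2 fold changes of FPKM + 1 at 48 h against control for the genes of 9 lists, with blue called lower, red called higher and white not called, and a bar marks each list's median. The 3 genes listed as mitochondrial elongation factors, among them the recycling factor GFM2, are all blue. The cytosolic elongation factors are all white, and the ATF4 list spreads from PYCR1 at -0.65 to DDIT4 at 0.86.

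The start regions of the synthetase genes were searched for 4 motifs on both strands, none of which contains another, because ATF4 with C/EBP partners is known to bind sites of the form TGATGNAA. RefSeq (GRCh38.p14) gave windows from 250 bases before to 50 after the start for 30 of the 35 members. TGATGNAA was found in 8 of the 30, beside 4.46% of all 27305 genes with a window. The 8 are shown with 11 bases on each side, on the strand of the gene and with the motif or its complement in capitals, so that their shared core can be read.
AARS1: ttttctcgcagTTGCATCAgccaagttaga
CARS1: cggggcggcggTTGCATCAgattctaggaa
GARS1: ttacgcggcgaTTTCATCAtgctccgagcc
IARS1: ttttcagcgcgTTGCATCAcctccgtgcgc
MARS1: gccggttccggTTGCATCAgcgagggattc
NARS1: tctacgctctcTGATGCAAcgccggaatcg
TARS1: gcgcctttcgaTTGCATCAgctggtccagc
YARS2: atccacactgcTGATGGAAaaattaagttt
These lie at chr16:70289675-70289704 for AARS1, chr11:3057407-3057436 for CARS1, chr7:30594834-30594863 for GARS1 and chr9:92293692-92293721 for IARS1. For MARS1 the stretch is chr12:57488053-57488082, for NARS1 chr18:57621804-57621833, for TARS1 chr5:33440956-33440985 and for YARS2 chr12:32756076-32756105. The genes GARS1, MARS1 and TARS1 are on the plus strand and the other 5 on the minus strand. The first motif base lay at position -187 from the start site in AARS1 and -197 in YARS2, and between -33 and 15 in the other 6.

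Matches to TGATGNAA stood in genes that fell and in genes that were not called. Of the 7 cytosolic genes with a match 4 were called lower at 48 h (median log2 fold change -0.12), and of the 9 without one 6 were (median -0.16). EPRS1, FARSB, WARS1 and SARS1 had none in these windows. CACGTG was found in 4 of 30 members beside 8.77% of all genes, TGACGTCA in 0 of 30 beside 2.25%, and CCAAT in 16 of 30 beside 39.7%. A match is a run of letters and does not show binding. HARS1 and HARS2 lie head to head, with start sites 85 bases apart and 184 bases shared by their windows.

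Under 18 other settings each (17 for CARS2), 7 of the 13 calls at 48 h against control held throughout, namely EPRS1, FARSB, WARS1, SARS1, IARS1, NARS1 and TARS2. Calls of AARS1, CARS2, KARS1, RARS1, TARS1 and YARS1 each ended without at least 1 library, at adjusted p values of 0.0506 to 0.222 over all settings that ended them. Leaving out control library 1 or control library 3 gave 8 calls, all lower. Without library 2 at 48 h there were also 8, of which 7 were lower and 1 was higher. The higher one was FARSA, with a log2 fold change of 0.15 (limma adjusted p = 0.0448). Leaving out library 3 at 24 h gave 20 calls, of which 18 were lower. Median-of-ratios scaling gave 9 lower synthetases and 1 higher (QARS1), and moved the lower calls of all genes to 1617 of 3773, beside 2080 of 3891.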

How the data were processed

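The authors deposited FPKM for 36810 genes in 9 libraries, with replicates kept apart. The submitters' processing notes name the build hg38 and the tools HISAT2, Subread, featureCounts and DESeq2. The sources used here give neither tool versions nor the annotation release. Depth was recovered from the steps between low values, and a member's length is the smallest that gave whole fragments (to 0.01) in all 9 libraries. Gene positions and exons came from GENCODE 29.

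Genes with at least 1 FPKM in at least 3 libraries (13657, 34 of the 35 members) were fitted as log2(FPKM + 1) with 1 mean per group in limma 3.58.1 (R 4.3.3; trend; 6 residual degrees of freedom; two-sided; Benjamini-Hochberg). The pseudocount understates changes of low genes. The p-values measure the spread between these libraries, which may be technical. Members, lists and tests were chosen with earlier results of these data known, so lists are described by counts and medians without a test. Library values are printed for members called in any comparison and for the 3 highest of each compartment, and up to 4 called genes a list are named, with AIMP1, AIMP2, EEF1E1, ATF4, ASNS and EIF2AK4 always. CDH1, CD3E, HBB and EEF1G are not analysed here.

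Alternatives were pseudocounts of 0.1 and 0.5, no filter, 5 FPKM, 2 other scalings, array weights, only the 2 groups compared, a replicate block, and each library left out.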

Additional observations from a re-analysis of the deposited data

Results flagged for a closer look

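For 16 synthetases the change from control at 48 h differed from that at 24 h, tested directly as the limma contrast of 48 h against 24 h, in which the shared control libraries cancel and which holds the compound and the time in culture together (adjusted p under 0.05 over 13657 genes). The difference, 48 h minus 24 h on the log2 scale, was -0.498 for WARS1, -0.466 for FARSB, -0.447 for EPRS1, -0.332 for SARS1, -0.280 for NARS1 and -0.275 for IARS1. It was -0.204 for AARS1, -0.179 for GARS1, -0.165 for RARS1, -0.146 for YARS1, -0.116 for KARS1, -0.106 for MARS1 and -0.100 for TARS1. Of the mitochondrial genes it was -0.248 for CARS2 and -0.232 for TARS2. QARS1 alone among the 16 had a positive difference, 0.126. Of all genes tested, 32.3% were called in this contrast.

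For 9 of the 16, namely EPRS1, FARSB, GARS1, IARS1, NARS1, SARS1, WARS1, YARS1 and TARS2, the call held under all alternatives run. CARS2 lost it only without library 1 at 48 h, at an adjusted p of 0.0529. The calls of MARS1 and TARS1 ended under 11 of 18 alternatives each, at adjusted p values of 0.0511 to 0.492 for MARS1 and 0.0548 to 0.714 for TARS1, and among those were the fits without library 1 or 3 of the control group, library 1 or 2 at 24 h and library 1 or 2 at 48 h, with library 3 at 48 h for MARS1 and control library 2 for TARS1 besides. AARS1 lost its call without library 1 or 2 at 24 h or at 48 h, KARS1 without library 2 at 24 h or library 2 or 3 at 48 h, and RARS1 without control library 1, library 3 at 24 h or any 48 h library. QARS1 lost its call without control library 3, library 2 at 24 h or any 48 h library. Over all alternatives that ended them, adjusted p was 0.0629 to 0.0931 for AARS1, 0.0551 to 0.355 for KARS1, 0.0542 to 0.114 for RARS1 and 0.0520 to 0.0985 for QARS1.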

How the results depend on the processing

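No call turned its direction under any of the alternatives run. The 13 calls of 48 h against control ranged from 8 to 20 when 1 library was left out, and the 16 calls of 48 h against 24 h ranged from 10 to 17, with 10 also when only the 2 groups compared were fitted. At 24 h the count was 0 under all of them. Calls of 48 h against control ended for AARS1 without control library 1, 2 or 3 or 48 h library 1 or 2, for KARS1 without control library 1 or 3 or 48 h library 2 or 3, and for RARS1 without control library 1 or 3, 24 h library 2 or any 48 h library. They ended for TARS1 without control library 1 or 3 or 48 h library 1 or 2, for YARS1 without control library 2 or 48 h library 2, and for CARS2 without control library 1 or 3 or 48 h library 1 or 2. The median log2 change of the cytosolic genes at 48 h against control (-0.136) was -0.101 with median-of-ratios scaling and -0.0970 with quantile normalization, and -0.149 to -0.126 with 1 library left out; against 24 h (-0.146) it was -0.118 with quantile normalization and -0.157 to -0.135 with 1 library left out. At 24 h against control (-0.0059) it was 0.0172 with median-of-ratios scaling, 0.0082 with array weights and -0.0246 to 0.0065 with 1 library left out. The mitochondrial median with 1 library left out was -0.0591 to 0.00081 at 48 h against control, -0.0163 to 0.0363 at 24 h against control and -0.0752 to -0.0077 at 48 h against 24 h. The cause was not tested. Libraries of the same number did not pair: their deviations correlated at -0.057 to 0.238, over 0.1 in 2 of 9 pairs. With the replicate number as a block 13, 0 and 15 synthetases were called at 48 h and 24 h against control and at 48 h against 24 h, and MARS1 lost its call in the last. Depth limits SARS2, FARS2 and VARS2 most, with 60 to 88, 97 to 155 and 12 to 19 fragments.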
